A study of Mus musculus with 8 samples.

Results

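Chromosome 4 of the mouse was represented by 9976 of the 170305 probes on each array, or 5.86% of them. The members were chosen by position alone: every probe that is not a control and that the array design places on chromosome 4 of the mm9 build. They cover chr4:3159538-155629081, a probed length of 152.5 Mb, at a median spacing of 11.03 kb and with a widest gap of 1.47 Mb. The 8 liver tumors came from as many male FAH-/- mice. Their DNA (Cy5, red) competed on comparative genomic hybridization arrays with a pool of liver DNA (Cy3, green) that combined 6 male littermates of genotype FAH+/+. Fah encodes the last enzyme of tyrosine breakdown, and mice without it depend on NTBC, a drug that blocks the pathway further up. The tumor mice had received water with 7.5 mg/L NTBC and then 2.5% of that dose for 6 to 12 months. The treatment of the pool mice and the ages of the animals were not given in the sources used here. The 8 tumors form 1 group and each is 1 replicate. The pool was a single sample, so the spread between normal livers enters no error below, and no array held non-tumor liver of a tumor mouse. The dyes were not swapped.

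The mouse chromosome 4 is made of blocks that match several human chromosome arms. Its proximal part carries genes of human 8q, 9q and 9p, among them Cdkn2a, which encodes inhibitors of the cell cycle and acts as a tumor suppressor. Proximal refers here to the order of the genes, not to the midpoint at which the chromosome is cut below. Its distal part matches much of human 1p, an arm that is often lost in human tumors and that carries Arid1a, a chromatin remodeller, Runx3, a transcription factor, and Chd5, a chromatin protein. Loss of a chromosome in part of the cells of a sample lowers the ratio less than loss in all of them. A log2 ratio of -1 corresponds to 1 of 2 copies missing throughout the sample. The share of tumor cells in each sample was not measured, so a shallow loss in all cells and a deeper one in some cells cannot be told apart.

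Arrays shared a strong probe-to-probe pattern, and each level is therefore given on more than 1 scale. On the first scale the pattern was kept and 0 was the commonest level of the medians of 1 Mb bins over the autosomes. Probe values were skewed upwards, so that the commonest mean of a 1 Mb bin lay 0.029 to 0.156 above this 0, depending on the array, and a mean over probes on the first scale is raised by about that much. Medians over probes do not carry this offset. On the second scale the pattern, taken for each tumor from the other 7 arrays, was subtracted. Each chromosome had first been set to its own median. The pattern thus holds no level of a whole chromosome, but it does hold any difference along a chromosome that most tumors share. Neighbouring probes scattered by 0.62 to 0.65 (log2) in tumors 1 to 6, by 0.39 in tumors 7 and 8, and by 0.15 to 0.22 in all tumors once the pattern was removed. Tumors 7 and 8 also stood apart in the strength of the pattern, which was 0.55 and 0.58 of the common one against 1.02 to 1.07 in the other 6. The distal difference, the count of partial losses and the overlaps below are given with and without them. Tumors 1 to 4 were on 1 slide and tumors 5 to 8 on another.

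Chromosome 4 was lost along its whole length in tumor 1, was lower by a smaller amount over most of its length in tumor 6, and lay near the commonest level in tumors 3, 4 and 5. Tumor 1 had a mean log2 ratio of -0.55 on the first scale, a median over probes of -0.66 and a mean of -0.65 with the pattern removed, a tumor-to-pool ratio of 0.637. Tumor 6 had -0.095, -0.20 and -0.22 on these 3 measures, and its ratio with the pattern removed was 0.859. With the array median as 0 its mean, which carries the upward offset, was 0.021. The direction of the mean in tumor 6 thus depends on where 0 is set. Its array median lay 0.117 below the 0 of the first scale, so its median over probes, at -0.20, was below the array median as well. Tumor 2 had -0.023, -0.12 and -0.14. Tumor 8 had -0.052, -0.097 and -0.097, and tumor 7 had -0.0064, -0.045 and -0.061. Tumor 3 had a mean of 0.14, a median of 0.021 and a mean with the pattern removed of 0.022. Tumor 4 had 0.14, 0.031 and -0.0082, and tumor 5 had 0.12, 0.0035 and -0.0031. Tumor 1 was thus separate from the other 7 tumors on these 3 measures, and tumor 6 was the lowest of the other 7. With the array median as 0, tumor 1 was at -0.47 and tumor 2, at -0.026, was the lowest of the other 7.

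**Figure D1:**
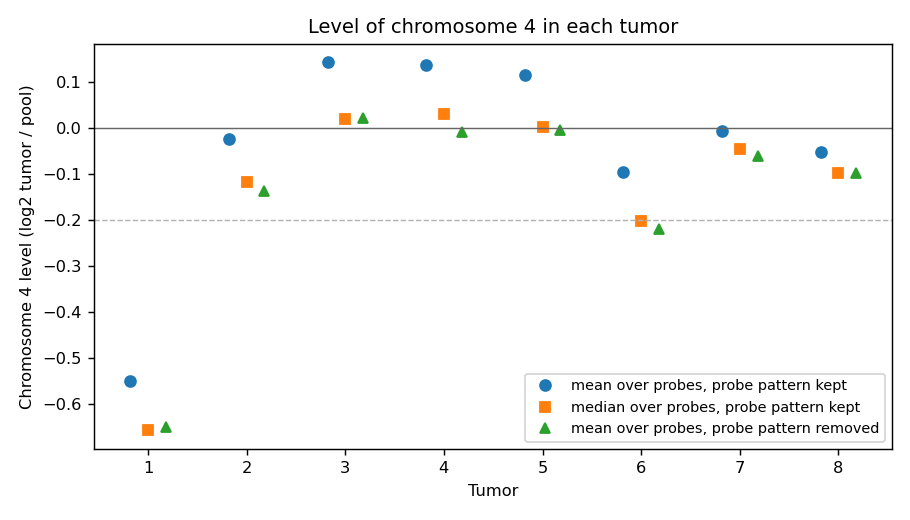
Level of chromosome 4 (vertical axis, log2 of tumor over pool) in each of the 8 tumors (horizontal axis), as the mean over probes with the probe pattern kept, the median over probes, and the mean with the pattern removed. The dashed line marks the call threshold of -0.2. Tumor 1 lies between -0.66 and -0.55, tumor 6 between -0.22 and -0.095, and the other 6 tumors between -0.14 and 0.14.

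The level across the 8 tumors did not differ from 0 by the test used. The mean on the first scale was -0.041 ± 0.22 (SD, n = 8), below 0 in 5 of 8 tumors, and the two-sided exact sign-flip permutation test gave p = 0.773 (Benjamini-Hochberg adjusted p = 0.872 over 19 autosomes and X). Without tumor 1 the mean was 0.032, so its sign rested on that tumor. The median over probes averaged -0.13 ± 0.23 (SD, n = 8), also negative in 5 of 8 (exact p = 0.0781, adjusted p = 0.312). The mean with the pattern removed was -0.14 ± 0.22 (SD, n = 8) and negative in 7 of 8 (exact p = 0.0391, adjusted p = 0.13). Of the 20 chromosomes tested in this way on the first scale, 0 passed, or 0% as the background. The smallest p that 8 tumors allow in this sign-flip test is 0.00781. Chromosomes 15 and 16 had that p and still an adjusted p of 0.0625. The count of 0 is thus set in part by the number of tumors and does not measure how often levels differ. Within the slides the first-scale mean was -0.073 ± 0.33 (SD, n = 4) on the first slide, which holds tumor 1, and -0.0093 ± 0.091 (SD, n = 4) on the second.

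The signal of tumor 1 was low in the tumor channel and not in the reference channel. Relative to the other arrays, its red signal over chromosome 4 was lower by 0.53 (log2 difference -0.53), while its green signal differed by -0.014. In the other 7 tumors the green signal differed from that of the other arrays by -0.019 to 0.012. Tumor 1 also had low levels of chromosomes 12 and 13, at -0.67 and -0.64 with the pattern removed, beside -0.65 for chromosome 4. Chromosome 4 was the second lowest of the 20 chromosomes of this tumor. In tumor 6 chromosome 4 was not among the lowest. Chromosomes 8, 12, 13, 14 and X of that tumor had levels of -0.47 to -0.49 with the pattern removed, and chromosome 4, at -0.22, was preceded by 6 lower chromosomes.

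Chromosome 4 was set against chromosomes 8, 12 and 13, which earlier results on these tumors had shown to be lost as a whole in some of them. The tumors were not always those with a low chromosome 4. With the pattern removed, chromosome 8 was at -0.49 in tumor 6 and 0.015 in tumor 1. Chromosome 4 minus chromosome 8 was -0.059 ± 0.27 (SD, n = 8), from -0.67 in tumor 1 to 0.26 in tumor 6, and the exact sign-flip test gave p = 0.703 (adjusted over the 3 pairs, 0.703). Chromosome 4 minus chromosome 12 was 0.11 ± 0.16 (SD, n = 8), with exact p = 0.148 and adjusted p = 0.445. Tumor 4 had the largest difference from chromosome 12, at 0.34, followed by tumor 8 at 0.32 and tumor 6 at 0.25, tumors in which chromosome 12 was low and chromosome 4 was not or less so. Chromosome 4 minus chromosome 13 was 0.027 ± 0.095 (SD, n = 8), with exact p = 0.625 and adjusted p = 0.703, and tumor 6 alone, at 0.25, lay away from the rest, which ranged from -0.050 to 0.056. None of the 3 differences passed the test in 8 tumors.

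Division of each first-scale profile into segments gave 1 whole loss and 7 partial losses in 2 tumors, or 1 partial loss without tumors 7 and 8. Segments of 5 or more probes were called losses when their mean was -0.2 or lower and gains when it was 0.2 or higher. Means on the first scale carry the upward offset, 0.113 to 0.156 in tumors 1 to 6 but 0.029 and 0.043 in tumors 7 and 8. The cut was thus stricter for losses and looser for gains, more so in tumors 1 to 6. Tumor 1 had a single segment over chr4:3159538-155629081 at -0.55 on the first scale (9973 probes, SE over probes 0.0071). Tumors 3, 4 and 5 had a single uncalled segment each. Tumor 2 had 2 uncalled segments, 0.0038 up to position 116840626 and -0.083 from position 116846900 on. With the pattern removed tumor 2 had 5 losses over 6.83% of the chromosome, and tumors 3 and 5 had 1 short loss each. Tumor 6 had 1 called loss and tumor 7 had 6 losses and 5 gains, while tumor 8 had 1 short gain and 0 losses. Of all chromosome 4 probe values, 14.5% lay in called losses, against 8.43% of the probe values of all chromosomes. Without tumor 1 these shares were 2.26% and 7.18%. Called gains held 8.23% of the probe values of all chromosomes. The corresponding shares with the pattern removed were 24.3% and 15.2%, and without tumor 1 they were 13.5% and 14.9%. Without tumor 1, chromosome 4 thus had the smaller share in losses on the first scale, and the shares were close with the pattern removed. Neither difference was tested.

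**Figure D2:**
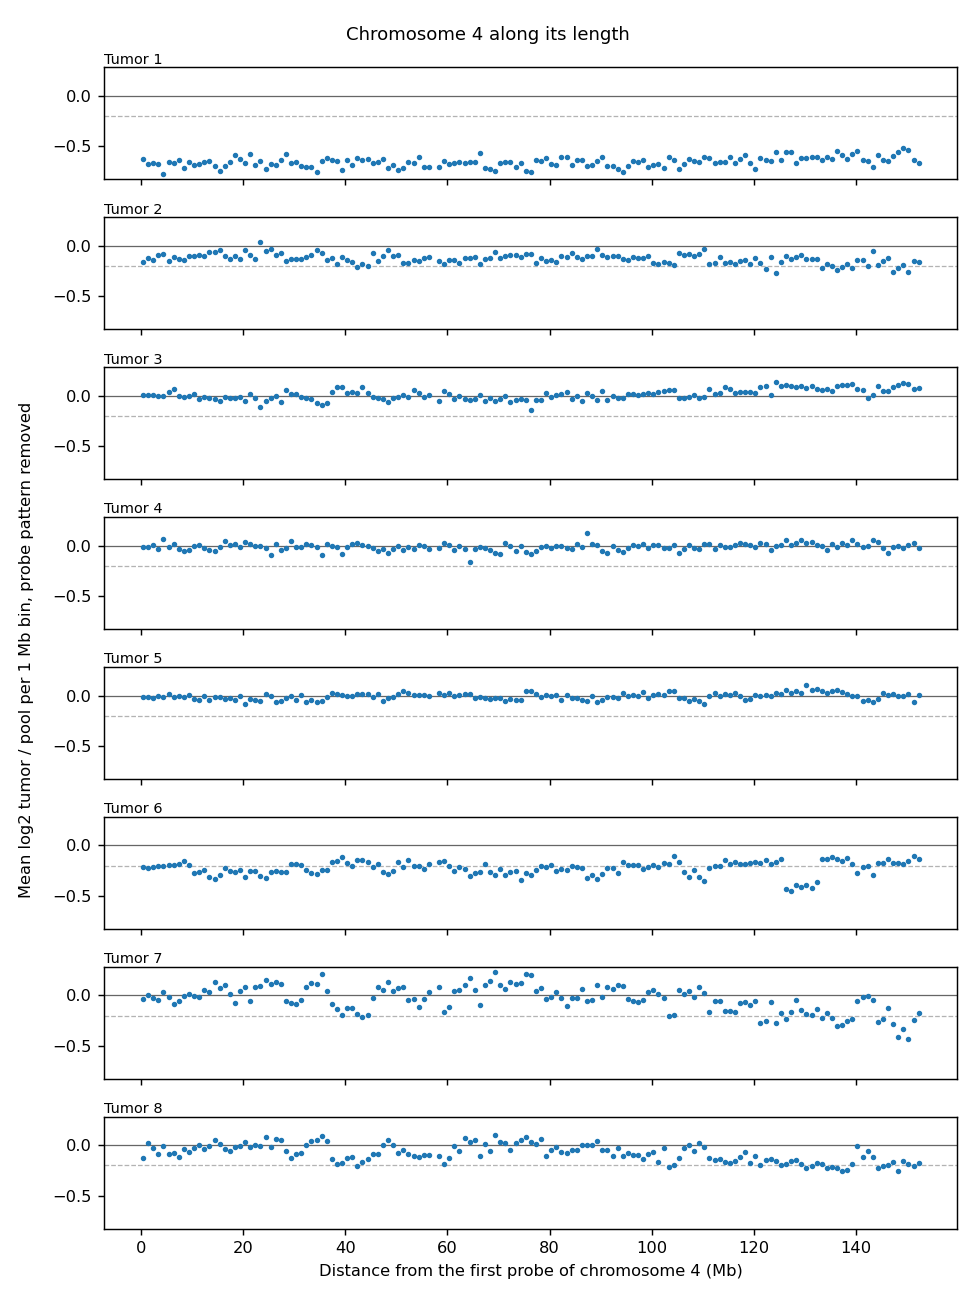
Mean log2 ratio of tumor over pool per 1 Mb bin with the probe pattern removed (vertical axis) against the distance from the first probe of chromosome 4 (horizontal axis, Mb), 1 panel per tumor; the dashed line is the call threshold of -0.2. Tumor 1 lies far below 0 over the whole length, tumor 6 has a sharp deeper stretch, and tumors 7 and 8 slope down at the distal end.

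Tumor 6 had the sharpest partial change, a deeper stretch towards the distal end of the chromosome. On the first scale the called loss was chr4:126906275-136210323 (9.30 Mb, 791 probes) at -0.28 (SE over probes 0.024), between -0.085 on the proximal and -0.053 on the distal side. With the pattern removed, a fit of 2 edges placed it at chr4:129010831-135826183 (6.82 Mb, 604 probes), at -0.41 inside and -0.17 over the rest of the fitted window from 115 to 150 Mb. On that scale the left edge could lie between positions 128992921 and 129043155 and the right edge between 135807928 and 135844606, where the log likelihood falls by at most 2. On the first scale the left edge was open from 126770004 to 129730926 and the right edge from 135622687 to 136397370, so the pattern-removed edges lie within those ranges. The difference between inside and the rest of that window was -0.22 on the first scale and -0.25 with the pattern removed. Against the whole rest of chromosome 4, at -0.080 and -0.21 on the 2 scales, the stretch was lower by 0.20 and 0.20 (log2 differences -0.20 and -0.20). The loss was not called with the array median as 0 or at a threshold of 0.3.

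The same stretch was compared in all 8 tumors with the 5 Mb on either side of it. With the pattern removed, inside minus flanks was -0.26 in tumor 6. It was 0.011 in tumor 1, 0.072 in tumor 2, 0.019 in tumor 3, 0.033 in tumor 4, 0.032 in tumor 5, 0.054 in tumor 7 and 0.0082 in tumor 8. Only tumor 6 was lower inside than outside. As the stretch was chosen on tumor 6, this difference is a description, with no test. In windows of 0.5 Mb, the 13 windows of tumor 6 inside the stretch lay between -0.45 and -0.35 and the 44 windows around it between -0.30 and -0.090, without overlap. In tumor 1 the corresponding windows ran from -0.69 to -0.42 inside and from -0.73 to -0.49 outside, which overlap. The red signal carried the step of tumor 6. Relative to the other arrays the red signal changed by -0.26 from flanks to inside and the green signal by -0.0002.

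**Figure D3:**
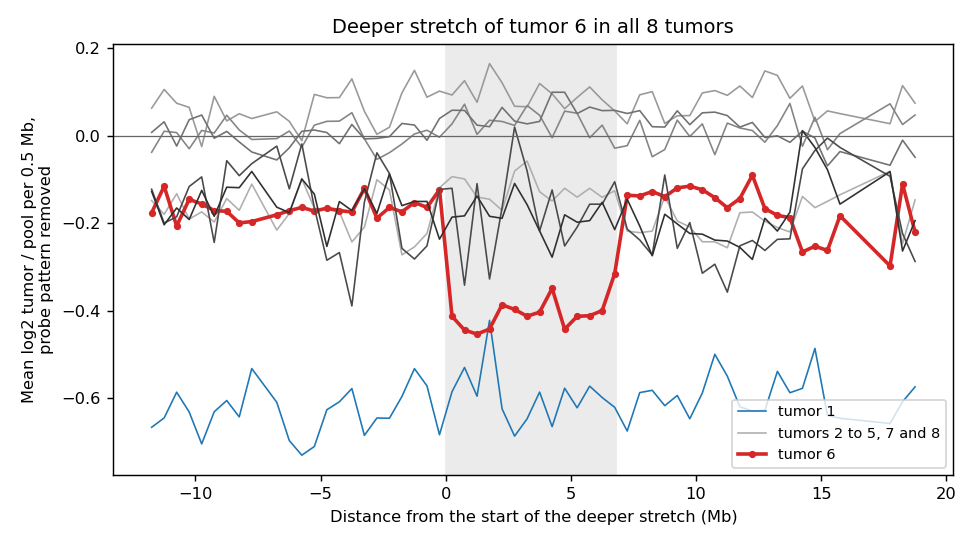
Mean log2 ratio per 0.5 Mb with the probe pattern removed (vertical axis) against the distance from the start of the deeper stretch of tumor 6 (horizontal axis, Mb), 1 line per tumor; the grey area is the stretch of 6.82 Mb. Tumor 6 drops to between -0.45 and -0.35 inside it, and tumor 1 stays at about the same level inside and outside.

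Within the deeper stretch of tumor 6, one short run was lower still. On the second scale, chr4:133980647-134018657 (38.01 kb, 6 probes) had a mean of -0.82 (SE over probes 0.053), between segments of -0.41 and -0.40. Further shallow segments of tumor 6 crossed the threshold with the pattern removed, where its chromosome mean was -0.22. Of these, chr4:11320297-32087284 at -0.26, chr4:63131113-97220034 at -0.24 and chr4:109425008-113832609 at -0.30 were the longest or lowest of them. Called losses covered 58.9% of the chromosome in tumor 6 on that scale and 6.10% on the first.

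Tumor 7 had 6 short losses, mostly near the distal end, and 5 gains, all proximal to them except for the first loss. They were chr4:62094423-63412938 at -0.23, chr4:113676144-114304488 at -0.29, chr4:123606620-126003215 at -0.28, chr4:126793742-128808518 at -0.29, chr4:130337081-131394845 at -0.39 and chr4:150493260-154252748 at -0.35. Of these 6 losses, 5 were at least 1 Mb long and 5 lay past the midpoint of the chromosome. The gains of at least 1 Mb were chr4:35802110-40093488 at 0.24, chr4:65503149-67764953 at 0.25 and chr4:70152274-80242218 at 0.22. In all, losses covered 7.33% and gains 11.3% of the chromosome in this tumor. With the pattern removed the losses covered 17.5% and the gains 0.0799%, and the 3 gains named here were no longer called. Tumor 7 was divided into 304 segments over all chromosomes and tumor 8 into 192, against 38 to 51 in the other 6 tumors, so fine division of these 2 arrays was not a feature of chromosome 4 alone. Their 1 Mb bin profiles along chromosome 4 correlated with r = 0.90 over 152 bins, and with r = 0.74 to 0.93 on the other chromosomes. This was not particular to them, as tumors 1 and 3 had r = 0.90 on chromosome 4 and tumors 3 and 5 had r = 0.91. With the pattern removed the correlation of tumors 7 and 8 on chromosome 4 was 0.86. On that scale tumor 2 also correlated with tumors 7 and 8, at 0.70 and 0.65, and tumor 3 went the other way, at -0.87 and -0.81. The other chromosomes had medians of 0.70 and 0.57 for tumor 2 and of -0.76 and -0.62 for tumor 3. For tumors 7 and 8 they had r = 0.56 to 0.91. These relations were thus not particular to chromosome 4, although tumor 3 lay just below the lowest values elsewhere, -0.86 and -0.79. These bins share the probe content of the array, and the part of the arrays' weaker pattern in these segments was not tested.

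The single gain of tumor 8 was chr4:66720754-66920430, with 7 probes at a mean of 0.84 (SE over probes 0.19). It was not called on the second scale, and tumor 8 had 3 losses on that scale, the longest chr4:132485926-142699391 at -0.22. Borders of segments recurred close to one position in 3 tumors on the first scale. Tumor 2 changed level between positions 116840626 and 116846900, tumor 7 between 116740955 and 116757212, and tumor 8 between 116722057 and 116735073, each to a lower level distally. With the pattern removed, tumor 2 changed between 116784335 and 116791761 and tumor 7 between 116651156 and 116657542, again to lower levels. Tumor 8 then had no border there, as 1 segment ran from 113807458 to 132474086. Tumor 6 had a border between 116722057 and 116735073 on that scale, to a higher level distally (from -0.22 to -0.16). On the first scale, tumors 7 and 8 also shared a border near the distal end, between 143077074 and 143086150 in tumor 7 and between 143043812 and 143057835 in tumor 8. These borders were picked out after the values had been seen.

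On the first scale the called losses overlapped in 3 tumors at 2 places. There tumors 1, 6 and 7 were lost together over chr4:126906275-128808518 (1.90 Mb, 127 probes) and chr4:130337081-131394845 (1.06 Mb, 46 probes), 2.96 Mb and 1.73% of the probes in all. A further 14.5 Mb, or 12.3% of the probes, was lost in 2 tumors, always tumor 1 with tumor 6 or tumor 7. The remaining 134.8 Mb was lost in tumor 1 alone. Both places need tumor 7, and without tumors 7 and 8 no probe was lost in more than 2 tumors. The second scale gave wider overlaps, with 13.2 Mb (10.6% of the probes) lost in 3 tumors and 7.93 Mb (6.79%) in 4, such as chr4:132493736-135344990 in tumors 1, 6, 7 and 8. Without tumors 7 and 8, 43 probes were lost in 3 tumors on that scale and none in 4. As tumor 1 lost the whole chromosome, any loss in another tumor overlaps it. The first shared stretch lies outside the edges fitted for tumor 6 with the pattern removed, which start at 129010831, and the second lies inside them.

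The fixed list of 61 genes could be placed by chromosome and by order along it, but not by mm9 position, so no gene was assigned to a segment. All 61 lie on chromosome 4 in the RefSeq table. The whole loss in tumor 1 therefore spanned all 28 listed genes of the part that matches human 1p, all 9 of the part that matches human 9p, all 8 of the 9q and 8q part and all 16 liver genes, as far as the probes reach. From the proximal end, the order runs from Lyn, a kinase, and Mos, a kinase of germ cells, over Pax5, a factor of B cells, and the cluster of Mup20 and Mup3, major urinary proteins made by the liver, to Cdkn2a and Cdkn2b. Jun, a transcription factor, and Cdkn2c, a cell cycle inhibitor, follow. Arid1a, Runx3, Id3, an inhibitor of transcription factors, Sdhb, an enzyme subunit of the respiratory chain, Mtor, a growth kinase, Chd5 and Trp73, a relative of the tumor suppressor Trp53, come in that order towards the distal end, and Prdm16, a transcription regulator, is the last.

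The comparison of the distal with the proximal part asked whether the part that holds the human 1p genes was lower. The midpoint of the probed length, at 79.4 Mb, left 4299 probes proximal and 5677 distal to it. The midpoint does not mark the border of the matching human arms, so the distal part as cut here only approximates the 1p part. On the first scale, distal minus proximal was -0.0074 in tumor 1, -0.054 in tumor 2, 0.0047 in tumor 3, -0.026 in tumor 4, -0.020 in tumor 5, -0.029 in tumor 6, -0.13 in tumor 7 and -0.095 in tumor 8. The mean was -0.044 ± 0.046 (SD, n = 8), lower distally in 7 of 8 tumors (exact sign-flip p = 0.0156, adjusted p = 0.0284 over 20 chromosomes). With chromosome 4 split at 95 Mb instead, the mean difference was -0.053 (exact sign-flip adjusted p = 0.0284). The difference at the midpoint was small beside the whole loss of tumor 1, whose parts lay at -0.55 distally and -0.55 proximally. Of the 20 chromosomes, 11 passed this test, or 55%, so passing it was not particular to chromosome 4.

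Removing the pattern took the mean difference to -0.013 ± 0.056 (SD, n = 8), lower distally in 3 of 8 tumors (exact sign-flip p = 0.531, adjusted p = 0.992). A difference shared by the tumors is subtracted with the pattern, so this scale cannot decide whether they share one. It only shows how the tumors differ from each other. On that scale the difference was 0.031 in tumor 1, -0.026 in tumor 2, 0.048 in tumor 3, 0.0088 in tumor 4, 0.018 in tumor 5, 0.0057 in tumor 6, -0.11 in tumor 7 and -0.080 in tumor 8. The last of these, tumors 7 and 8, had the lowest differences on both scales. Without them the first-scale mean was -0.022, with an exact sign-flip test's adjusted p of 0.0893. Fewer tumors raise the smallest p possible, so the higher adjusted p alone does not show that the difference rests on tumors 7 and 8. Within the slides the mean was -0.021 ± 0.025 (SD, n = 4) on the first and -0.068 ± 0.052 (SD, n = 4) on the second, which holds tumors 7 and 8. In windows of 10 Mb with the pattern removed, tumor 7 ran from 0.13 in the window from 70 Mb to -0.32 in that from 150 Mb, and tumor 8 from 0.017 to -0.20 in the same windows. Tumor 1 ran from -0.69 to -0.59 between the same windows, in the opposite direction.

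**Figure D4:**
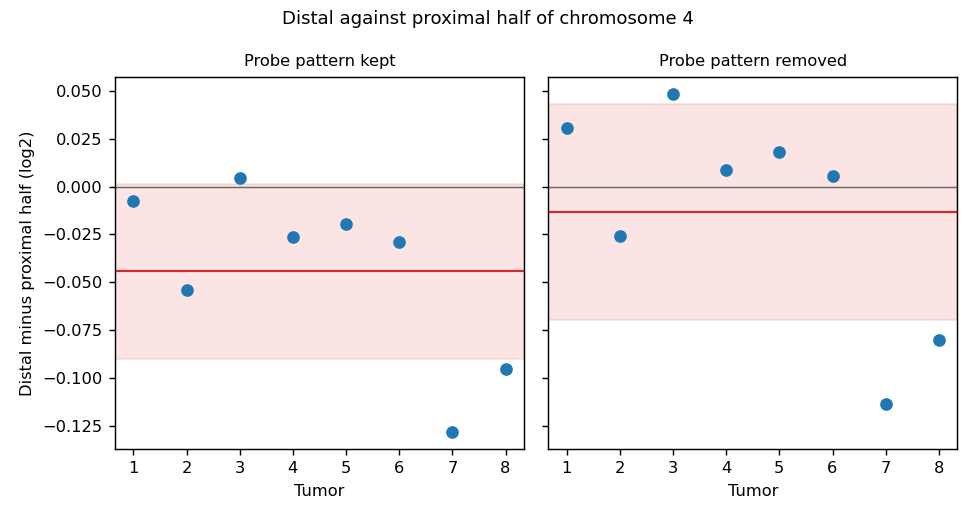
Distal minus proximal part of chromosome 4 (vertical axis, log2 difference of means over probes) in each tumor (horizontal axis), with the probe pattern kept (left) and removed (right); the red line is the mean over 8 tumors and the band 1 SD on either side. With the pattern kept 7 of 8 tumors lie below 0 and with it removed 3 of 8 do; tumors 7 and 8 are the lowest in both panels.

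No 1 Mb bin of chromosome 4 was shifted across the tumors by the main test. Of 152 bins on chromosome 4, limma's test against a log2 size of 0.1 (treat) called 0 lower and 0 higher at an adjusted p under 0.05, against 0.079% lower and 4.39% higher of 2531 bins over all chromosomes. At an unadjusted p under 0.05 the same limma test gave 1 lower and 2 higher bins on chromosome 4, against 25 and 351 of all 2531 bins. Tested by limma against 0, with no minimum size, 4 chromosome 4 bins were lower and 2 higher, against 1.78% and 22.3% of all bins. With the commonest bin mean as 0, the same limma test gave 14 lower and 0 higher of the 152 chromosome 4 bins. Over all 2531 bins it gave 220 lower and 136 higher. With the pattern removed it gave 0 and 0, both on chromosome 4 and over all bins. At an unadjusted p under 0.05 it gave, on that scale, 41 lower and 0 higher on chromosome 4, against 229 and 103 of all 2531 bins. A shift of single bins that the tumors share is subtracted with the pattern, so the counts on that scale cannot show such shifts. The bin with the lowest mean was chr4:6000001-7000000, at -0.25 ± 0.24 (SD, n = 8) and with a limma treat adjusted p of 0.25. Without 2 of its 71 probes, described next, its mean was -0.11 ± 0.24 (SD, n = 8).

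A few single probes were very low in every tumor. On chromosome 4, 6 probes had a log2 ratio of -2 or below on all 8 arrays, of 55 on all chromosomes, where the background was 0.0324% of probes. All 6 lay within the first 20 Mb, in a span of 13.9 Mb that holds 808 probes, and 0 lay beyond it. The threshold was separated from the next probe: the highest of the 8 values was -2.35 for the sixth probe inside it and -1.65 for the first outside it. No probe of chromosome 4 was at 2 or above on all arrays, against 31 on all chromosomes. As the 6 probes were picked for being low, their values are a description.

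At 5 of the 6 probes the red signal was not well above background on any array, while the green signal was well above it on all 8, so only a bound on the ratio can be given and the order of the tumors has no meaning there. At chr4:10669395-10669454 the pool was at least 20.6-fold brighter than the tumors. The bound sets the green mean against the higher of the dimmest signal well above background and the probe's own. The adjacent probes chr4:6080457-6080516 and chr4:6090027-6090086 had bounds of at least 8.81-fold and at least 18.0-fold. Their neighbours on either side, at positions 6062990 and 6100605, had medians of -0.013 and -0.17, so that the low stretch was at most 37.6 kb long. At chr4:18145982-18146041 the bound was at least 9.91-fold, and at chr4:20008384-20008443 it was at least 14.7-fold.

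The last of the 6, chr4:9600609-9600668, was measured in part, at -2.82 ± 0.38 (SD, n = 8), and its red signal was well above background on 4 of 8 arrays. A low ratio in every tumor against 1 pool cannot be told apart from a difference between the tumor mice and the pool mice that the tumors inherited.

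**Figure D5:**
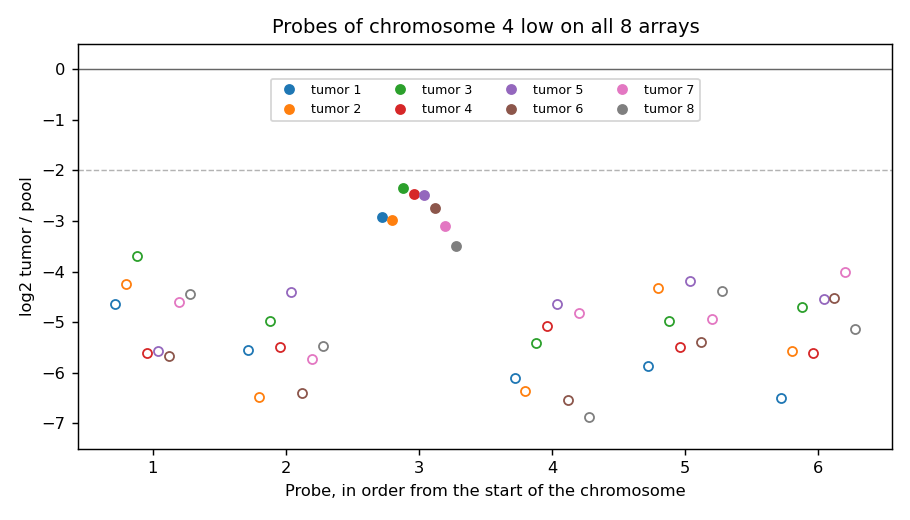
Log2 ratio of tumor over pool (vertical axis) at the 6 probes of chromosome 4 that were at -2 or below (dashed line) on all 8 arrays, in order from the start of the chromosome (horizontal axis), 1 point per tumor. Open points mark the 5 probes whose red signal was not well above background on any array, where the plotted value is not a measured level; the third probe, filled, lies between -3.49 and -2.35.

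Another 15 probes were at -2 or below in some tumors only. At chr4:19938921-19938980 this was so in 7 of 8 tumors, with -1.65 in tumor 7, and at 11 of the 15 it was so in tumor 1 alone. Tumor 1 lay lower over the whole chromosome, so a fixed cut of -2 was reached there more readily. The count of 11 does not by itself mark losses of single probes in tumor 1. At chr4:154252689-154252748 tumor 5 alone had -5.39, while the other 7 tumors had values between -1.16 and 0.34. In tumor 4 the probe chr4:67171384-67171443 was at -2.83, and in the other 7 tumors between -1.61 and 0.13. Among runs of 5 neighbouring probes that hold none of the 6 low probes, the lowest run with the pattern removed was -1.13 in tumor 1, -0.59 in tumor 2, -0.32 in tumor 3, -0.80 in tumor 4, -1.45 in tumor 5, -0.84 in tumor 6, -0.94 in tumor 7 and -0.74 in tumor 8. Runs at -1 or below numbered 6 in tumor 1, 5 in tumor 5 and 0 in the other 6 tumors, of 9946 in each. The runs overlap, so 1 probe can lie in 5 of them and the counts are not numbers of separate places. The lowest run of tumor 5 includes its single low probe, and that of tumor 4, chr4:67171384-67309217, starts at the single low probe of tumor 4. In tumor 1 the lowest run, chr4:84022766-84078998, lay below a median run of -0.66 in that tumor.

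By a rule set after the values had been seen (at least 3 neighbouring probes, each at least 0.4 and on average at least 0.7 away from the running median of 51 probes), chromosome 4 held 1 short event of 56 on all chromosomes, 12 of them in tumor 1. It was chr4:132251517-132270034 in tumor 1, where 3 probes lay 0.80 above their surroundings with the pattern removed, and at 0.21 on the first scale. In the other 7 tumors the same probes differed from their surroundings by -0.13 to 0.13 on the first scale.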

How the data were processed

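Scanner files of 8 arrays were read. Per the file headers and the submitters' processing notes, images were extracted with Agilent Feature Extraction 10.7.3.1, and probe positions are on mm9. The deposited processed signals are intensity values, background-subtracted and dye-normalized by the authors. The deposited table of the series holds log10 ratios of red over green, which differed from the scanner files' ratios by at most 0.00499. Quality marks of the spots, of the unit other, are deposited as 0 or 1.

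Log2 ratios of processed signals were computed, outlier-marked spots left out (115 to 221 per array) and spots of a probe averaged. Spots well above background in red and green made up 97.0% to 99.9% per array; the number of arrays limits the precision. Segments came from recursive circular binary segmentation (split threshold set on simulated noise to 1% false splits, values limited to 4 noise SD, merging below a z of 4). A whole loss covered at least 80% of the probed length. Python 3.11.15 (numpy 2.4.6, pandas 2.3.3, scipy 1.17.1, numba 0.67.0, matplotlib 3.10.9) and R 4.3.3 with limma 3.58.1 were used, and the scripts were tested on simulated data. Bins had at least 10 probes.

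Alternatives were the array median as 0, the pattern removed, normexp (offset 50), only spots well above background, medians over probes, the deposited table, other thresholds, a hidden Markov model, a split at 95 Mb and leaving out each tumor. Normexp had been planned on mean spot signals; median spot signals were used. The commonest bin mean as 0 and leaving out tumors 7 and 8 were added after seeing the data. Named are all called segments of at least 1 Mb on the first scale, shorter ones of at least 0.8 in size, and called bins; other regions named were chosen after their values were seen. The members, lists and tests were chosen with earlier results of these data known. Probe sequences are not printed here.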

Additional observations from a re-analysis of the deposited data

Results flagged for a closer look

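Of 8 sets of 8 values examined for a tumor far from the other 7, 5 held one by Dixon's ratio at its 95% critical value. Chance marks about 1 in 20 such sets, and the sets overlap, 4 of the 5 resting on tumor 1. Tumor 1 stood apart in the level of chromosome 4, at -0.55 on the first scale and -0.65 with the pattern removed, in chromosome 4 minus chromosome 8, at -0.67, and in the percentage of the chromosome in called losses, at 100%. Tumor 6 stood apart in chromosome 4 minus chromosome 13, at 0.25.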

How the results depend on the processing

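The mean level of chromosome 4 did not pass the test in any of the 8 alternatives other than leaving out a tumor (exact sign-flip adjusted p from 0.0781 to 0.93). Leaving out each tumor gave -0.067 to 0.032, the latter without tumor 1. The distal minus proximal difference lost its exact sign-flip call with the pattern removed (-0.013, adjusted p = 0.992) and without tumors 7 and 8 (-0.022, adjusted p = 0.0893), and kept it in the other 4. Removing the pattern also subtracts a difference shared by the tumors, and fewer tumors raise the smallest p possible. Neither lost call therefore shows that the difference is absent. Leaving out each tumor gave -0.051 to -0.032, with exact sign-flip adjusted p from 0.0347 to 0.0568, passing without tumor 3 only. The smallest p that 7 tumors allow in that test is 0.0156, so these lost calls do not show that the difference rests on single tumors. The counts of shifted chromosome 4 bins were 0 lower and 0 higher, except 4 lower and 2 higher by limma against 0, and 0 to 2 higher, the 2 without tumor 1, when a tumor was left out. Chromosome 4 minus chromosome 8 ran from -0.10 to 0.029, the latter without tumor 1, minus chromosome 12 from 0.081 to 0.13, and minus chromosome 13 from -0.0042, without tumor 6, to 0.038; 0 of these passed. The 7 partial losses became 43 with the pattern removed, 4 with normexp, 14 at a threshold of 0.1 and 2 at 0.3; the cause of the first of these changes was not tested. They were 5 to 10 in the other 4 alternatives. The loss called in tumor 6 covered 6.10% of the chromosome and 0% with the array median as 0 or at a threshold of 0.3; its deeper stretch was -0.22 to -0.25 against the rest of the fitted window on 4 scales. No paired analysis was possible because the tumors form 1 group against 1 pool. Mean levels of single tumors other than tumor 1 depend on where 0 is set. The mean of tumor 6 ran from -0.21 (commonest bin mean as 0) to 0.021 (array median). That of tumor 4 was 0.14 on the first scale and -0.018 with the commonest bin mean as 0.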
